A study of Mus musculus with 2 samples.

Results

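The tripartite motif (TRIM) family was taken as every gene with a non-control probe that the array files name Trim followed directly by a digit. The rule gave 88 probes for 61 genes, of 22801 named genes on the arrays. The samples came from the mouse macrophage line RAW264.7, with 1 array of control cells and 1 array of Lamtor1 knockdown cells. Lamtor1 anchors Ragulator to the lysosome, where the complex serves the kinase complex mTORC1, and the question of the series is the activity of TFEB, a transcription factor of lysosomal genes, when Ragulator is lost. The labels give 1 protocol for both samples, control included: lentiviral infection with mixed vectors whose short hairpin RNAs target Lamtor1, followed by dilution of the infected cells. They leave unsaid how the control cells were handled instead, if at all, and if the cells measured were clonal. With 1 array per group there was no replicate check and no test, and every difference describes these arrays only.

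TRIM proteins are built from a RING finger, 1 or more B-boxes and a coiled coil, and most are ubiquitin ligases. The C-terminal part differs between classes and sets what a member binds. In macrophages several members are known for relaying or restraining signals from virus sensors and Toll-like receptors, and a number of them are themselves induced by interferon. Other members act in muscle, neurons, germ cells or chromatin.

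A level here is the log2 processed signal minus the 75th percentile of that array's log2 signals, and a difference is knockdown minus control on that scale. A gene took its brightest probe, and was called measured if the control or the knockdown array had that probe well above background. Of the 61 genes 40 were measured, 34 of them on both arrays, 3 on the control array only and 3 on the knockdown array only. Lamtor1 itself was 23.1-fold lower. All 10 macrophage markers checked were well above background on both arrays, with Fcgr3 (1.52) and Cd68 (1.22) higher by over 2-fold and Adgre1 (-1.56) lower. Of the markers of other cell types, 2 of 6 for dendritic cells, 2 of 5 for T cells, 1 of 6 for fibroblasts, 1 of 5 for B cells and 0 of 4 for epithelium were measured. Of these other markers Siglech, with levels of 5.48 and 5.33, Zbtb46, Lck, Cd3e and Col1a2 were within 2-fold, and Cd79b was at least 2.62-fold lower. The part of these markers in the TRIM differences was not tested.

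As a family the TRIM genes did not shift in 1 direction. The median difference of the 40 measured genes was -0.06, against -0.05 over all 13773 measured genes, with 19 differences above 0 and 21 below. At 2-fold or more 7 genes were higher in the knockdown (17.5%; 9.00% of all measured genes) and 5 were lower (12.5%; 8.35% of all). Among genes well above background on both arrays, 4 of 34 were higher (11.8%; 6.31% of all such genes) and 2 lower (5.88%; 5.52% of all). Counted by the bounds explained with the genes concerned, 6 were higher (15.0%; 7.73% of all) and 3 lower (7.50%; 6.86% of all). The other 28 measured genes stayed within 2-fold, and for 20 of the 40 the difference was under 0.5 in size (50%; 63.4% of all genes). The genes nearest the threshold were Trim36 inside it at 0.81 and Trim16 past it at 1.06.

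**Figure D1:**
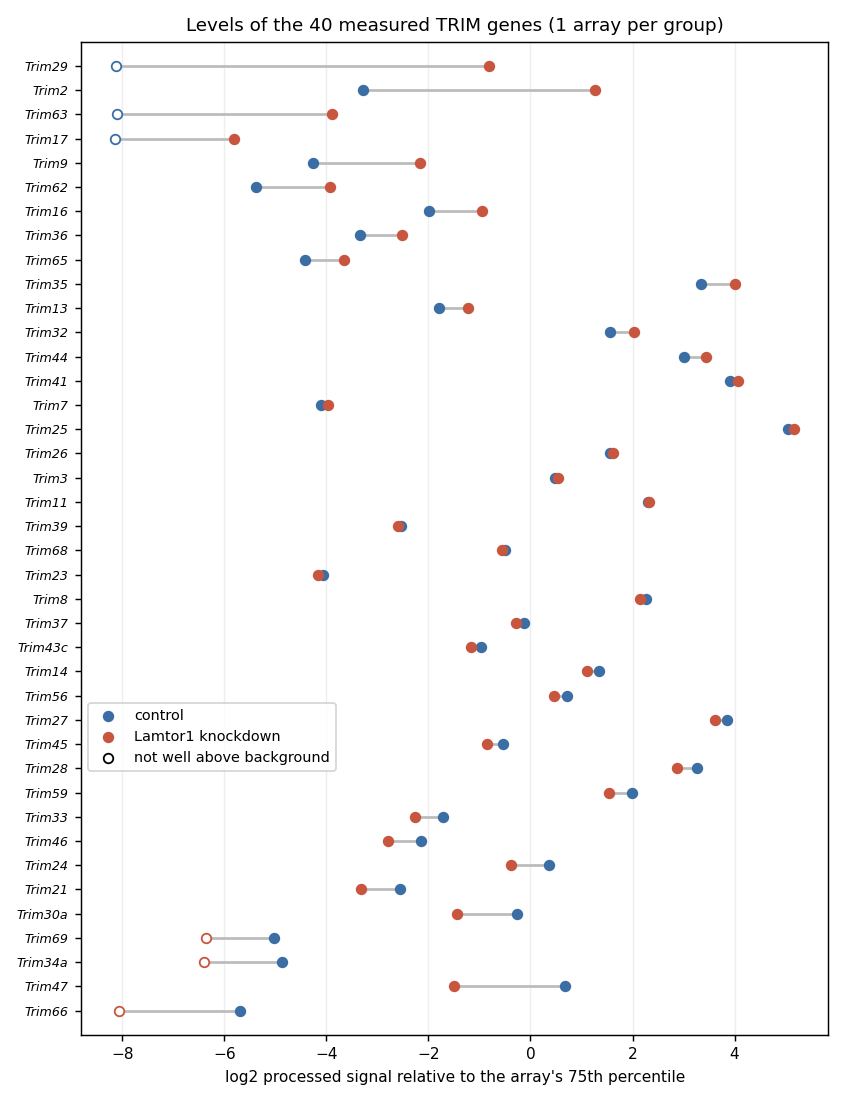
Level of each of the 40 measured TRIM genes (horizontal axis, log2 signal relative to the 75th percentile of the array) on the control array (blue) and the knockdown array (red), ordered by difference. Open circles are signals not well above background; Trim29, Trim2 and Trim63 stand far apart between the arrays and most other pairs lie close together. Levels of different genes come from different probes and are not comparable with each other.

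Trim29 was far higher in the knockdown, from a control signal not well above background. It encodes a B-box protein without a RING finger, known from epithelium and as a regulator of innate responses in macrophages. Its processed signal was 4.18 in control cells, where it was not well above background, and 717 in knockdown cells. The level went from -8.13 to -0.81, and counted from the background bound of the control array (its lowest signal that is well above background) the gene was at least 35.8-fold higher. With normexp, another background correction, the fold was 13.3, against 15.4 for Trim2. Normexp was run with an offset of 50 added to each signal, which by design shrinks the folds of dim genes. Trim29 was among the 38 of 61 genes with 1 probe. That probe was spotted 1 time on each array and lies on chromosome 9 at 43144032 to 43144092 (mm9).

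Trim2, an NHL-class ligase known for binding neurofilament in neurons, was 23.4-fold higher and well above background on both arrays. Its signal was 121 in control and 3027 in knockdown cells, at levels of -3.28 and 1.27. A second probe of the gene was above background on the knockdown array only and was at least 9.07-fold higher. Both probes lie on chromosome 3, the brighter at 83967683 to 83967742 (mm9). The other NHL genes measured were within 2-fold. Trim32, a ligase mutated in a limb-girdle muscular dystrophy, had a difference of 0.46 and Trim3, expressed in brain, of 0.05, and Trim71 was not measured.

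In the COS box class, whose members bind microtubules or the sarcomere, 4 genes were measured, of which 2 were higher by 2-fold or more (9.00% of all measured genes) and 0 were lower (8.35% of all). Trim63, known as MuRF1, the ligase that breaks down muscle proteins in atrophy, counted as measured through the knockdown array alone, with a signal of 4.28 in control and 84.5 in knockdown cells. It was at least 4.22-fold higher, and 2.37-fold with normexp. The other Trim63 probe was not well above background on either array. The remaining muscle members Trim54, Trim55 and Trim72 were not measured. Trim9, a ligase of neurons that acts with the netrin receptor, was 4.26-fold higher, with signals of 61.4 and 280 and levels of -4.25 and -2.16. Only 1 of its 3 probes was well above background, and with normexp the fold was 2.56. Trim36 had a difference of 0.81 and Trim46, which bundles microtubules in axons, of -0.65.

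**Figure D2:**
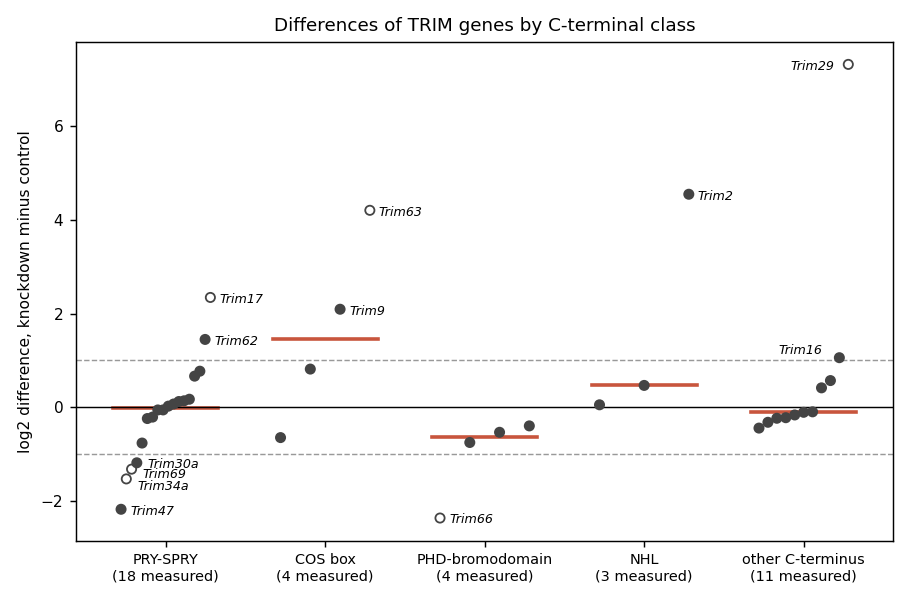
Log2 difference (vertical axis, knockdown minus control) of the measured TRIM genes in 5 classes by C-terminal part; red bars are medians of the plotted differences, open circles are genes well above background on 1 array only and dashed lines mark 2-fold. The 3 filled circles of the PHD-bromodomain class lie below 0, and the PRY-SPRY class lies on both sides.

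The PHD-bromodomain genes encode nuclear cofactors of transcription. The 3 that were above background on both arrays had differences below 0 under each of the 7 normalizations compared, as did 54.6% of all such genes with the main one. Trim24, a coregulator of nuclear receptors, was measured by 2 probes that gave -0.75 and -0.76, with levels of 0.36 and -0.39 at the brighter. Trim33, which regulates SMAD signalling, had a difference of -0.54, and Trim28, the corepressor recruited by KRAB zinc finger proteins, of -0.40. Trim66, known from spermatids, was above background on the control array only, with signals of 22.7 and 4.70, and was at least 1.20-fold lower. The class median was -0.65 with the measured value of Trim66 and -0.47 with its bound, and with the bound no member was 2-fold lower.

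The PRY-SPRY class was the largest, with 32 genes on the arrays and 18 measured. Its median difference was -0.02, which turned to 0.07 with median scaling and 0.0096 with cyclic loess. By 2-fold or more 2 of these genes were higher and 4 lower (9.00% and 8.35% of all measured genes). Counted by bounds these were 1 and 3, and with normexp 0 and 2. Trim47 was 4.53-fold lower, with signals of 1880 in control and 444 in knockdown cells and a difference of -2.18. Its probe lies on chromosome 11 at 115967143 to 115967202 (mm9). Trim62, a regulator of epithelial polarity, was 2.73-fold higher, from a signal of 28.1 to 82.0, but 1.42-fold with normexp. Trim17 was above background on the knockdown array only, at 22.5 against 4.14, and was at least 1.12-fold higher. Trim69, a ligase that binds microtubules, was above background on the control array only, at 35.7 against 15.3, and was at least 1.90-fold lower. With normexp Trim17 was 1.21-fold higher and Trim69 1.28-fold lower.

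Trim30a, Trim34a and their neighbours form a cluster of paralogs on chromosome 7 that the mouse has expanded. Trim30a, which the files name Trim30 and which restrains Toll-like receptor signalling by way of TAB2 and TAB3, was 2.28-fold lower. Its signal was 981 in control and 461 in knockdown cells, at levels of -0.26 and -1.44, and the fold was 2.15 with normexp. The probe lies on chromosome 7 at 111557578 to 111557637 (mm9). Trim34a, named Trim34 in the files, had a signal of 40.2 in control cells and of 14.9, not well above background, in knockdown cells. It was at least 2.14-fold lower, but 1.34-fold with normexp, and its other probe was above background on neither array. Trim5, Trim6 and Trim12a of the cluster were not measured.

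The same cluster holds genes that the naming table calls Trim but the files name otherwise, so the rule left them out. Trim30d was 2.14-fold lower, with levels of -1.04 and -2.14, beside -0.26 and -1.44 for Trim30a. Trim30c had a difference of -0.49, and the 3 probes of Trim12c gave -0.17, -0.22 and -0.78. Trim30b was not measured. Paralogs of this cluster are alike in sequence, and whether each probe reads 1 of them alone was not tested.

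Interferon-induced genes often carry near their start an element of GAAA, any 2 bases and GAAA again. Promoters of the TRIM genes were searched for it. The promoters come from RefSeq on GRCm38.p6, as 300 bases per annotated start (250 before and 50 after it). Of the 61 genes 46 had at least 1 entry, with 60 promoters in all. The element, searched on both strands with overlapping matches allowed, was in 8 of these 60 (13.3%) and in 3.44% of all 32851 promoters in the table. The 7 genes with it were Trim5, Trim12a, Trim30a and Trim34a of the cluster, and Trim2, Trim21 and Trim26. Trim30a counted at more than 1 start, and paralogs alike in sequence are not independent, so the shares are descriptive. Genes without an entry could not be searched, among them Trim16, Trim17 and Trim29, which were higher by 2-fold or more. Every gene lower by 2-fold or more had an entry. The stretches shown end at the base before the annotated start, and capitals mark the element, here on the reverse strand.
Trim30a, chr7:104465194-104465313, minus strand: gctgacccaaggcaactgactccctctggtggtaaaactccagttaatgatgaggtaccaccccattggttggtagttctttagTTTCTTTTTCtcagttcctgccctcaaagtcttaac
Trim30d, chr7:104507850-104507969, minus strand: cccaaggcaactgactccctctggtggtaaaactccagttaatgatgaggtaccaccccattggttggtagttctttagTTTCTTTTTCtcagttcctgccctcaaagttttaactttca
Trim5, chr7:104288107-104288226, minus strand: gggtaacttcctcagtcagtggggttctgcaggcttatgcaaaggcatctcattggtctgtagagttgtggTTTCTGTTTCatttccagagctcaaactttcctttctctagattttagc
Trim12c, chr7:104353350-104353469, minus strand: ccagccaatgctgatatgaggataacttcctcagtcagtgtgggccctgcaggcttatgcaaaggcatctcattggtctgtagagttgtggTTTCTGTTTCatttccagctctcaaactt
Trim26, chr17:36836976-36837145, plus strand: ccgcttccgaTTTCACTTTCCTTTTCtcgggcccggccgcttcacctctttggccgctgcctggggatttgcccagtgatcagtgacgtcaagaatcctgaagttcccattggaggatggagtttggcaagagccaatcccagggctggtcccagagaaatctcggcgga

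The stretches of Trim30a and Trim30d are nearly the same, with 114 of 115 overlapping bases identical and the element in the shared part, and these genes had differences of -1.19 and -1.10. Trim5 and Trim12c share 79 of 100 overlapping bases. Both pairs were compared without gaps, so an inserted or lost base lowers the count. A match to the element did not go with 1 direction among the measured members that had a promoter entry. Trim30a (-1.19), Trim34a (-1.53, above background on the control array only) and Trim21 (-0.77) were below 0. Trim26 had a difference of 0.07, and Trim2, with the match at 1 of its annotated starts, was higher. Trim21 and Trim26 each carry a pair of overlapping matches. A match is a string of letters and not a shown binding site, and its part in the differences was not tested.

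The E-box CACGTG, the core of the site that TFEB binds, was searched in the same promoters. It was in 3 of the 60 and in 7.15% of all promoters. The stretch of Trim25, the ligase that ubiquitinates the virus sensor RIG-I, is shown with the E-box in capitals.
Trim25, chr11:88999283-88999402, plus strand: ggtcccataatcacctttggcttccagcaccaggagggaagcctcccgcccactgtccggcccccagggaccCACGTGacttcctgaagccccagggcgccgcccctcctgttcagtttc
The genes with it were Trim25, Trim39 and Trim46, with differences of 0.12, -0.06 and -0.65, so none of these differed by 2-fold. Trim16, Trim17 and Trim29 had no promoter entry to search.

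Of the members listed here for signalling in antiviral defence, Trim30a and Trim34a were the 2 that reached 2-fold. The list leaves out Trim29, given above as a regulator of innate responses in macrophages and at least 35.8-fold higher. In the list of these members, which overlaps the classes given before, 13 of 14 were measured, 2 were lower by that size (8.35% of all measured genes), 0 were higher (9.00% of all) and the median was -0.11. A difference of 0.5 or more in size was seen in 5 of the 13 (38.5%), against 36.6% of all measured genes. Trim38, which restrains TLR3 and TLR4 signalling, was the 1 member not measured. Trim21, the cytosolic receptor for antibody-bound virus, had levels of -2.56 and -3.32 and was 1.70-fold lower. Trim25 had signals of 38880 and 45284 and a difference of 0.12. Trim26 had a difference of 0.07 and Trim27 of -0.24. Trim56, which acts on STING, had a difference of -0.24 and Trim14, an adaptor of MAVS, of -0.23 by its brighter probe. Trim65, a ligase of the RNA sensor MDA5, had differences of 0.77 and 0.08 at its 2 probes. Trim13 (0.57) and Trim32 (0.46) were above 0 and Trim23 (-0.10) below, all within 2-fold.

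The genes around them in the interferon pathway differed more widely. Of 17 measured interferon-stimulated effector genes 16 were at least 2-fold lower (8.35% of all measured genes), with a median of -2.87 and a range from -6.47 to -0.73. Of 15 genes for interferon receptors and signalling 4 were lower by that size (same share of all), with a median of -0.38. Among the effectors Rtp4 was 88.9-fold lower, Mx2, a GTPase that restricts viruses, at least 22.1-fold and Oasl2, of the oligoadenylate synthetase family, at least 17.6-fold lower. Irf7, the factor that amplifies interferon production, was 23.7-fold lower, Usp18 5.77-fold and Socs3 3.76-fold lower. These lists were chosen with earlier results known, so their direction is not independent evidence. Partners of TRIM ligases were flatter. Of 14 ubiquitin-pathway partners and 14 signalling partners none reached 2-fold, with medians of 0.05 and 0.16. Of all measured genes 9.00% were higher and 8.35% lower by that size. The interferon-inducible conjugating enzyme gene Ube2l6 had a difference of -0.90, the deubiquitinase gene Usp15 of 0.26 and Ube2d3, a conjugating enzyme gene, of 0.26. Map3k7, which encodes TAK1, had a difference of 0.77, Sqstm1, an autophagy receptor gene, of 0.73 and Sting1 of -0.39. The TRIM-class genes that carry other symbols also stayed within 2-fold in all 5 measured, against the same shares of all genes. Among them were Mid1 at 0.39, Mefv at -0.28 and Pml, an interferon-inducible nuclear body protein, at -0.22.

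**Figure D3:**
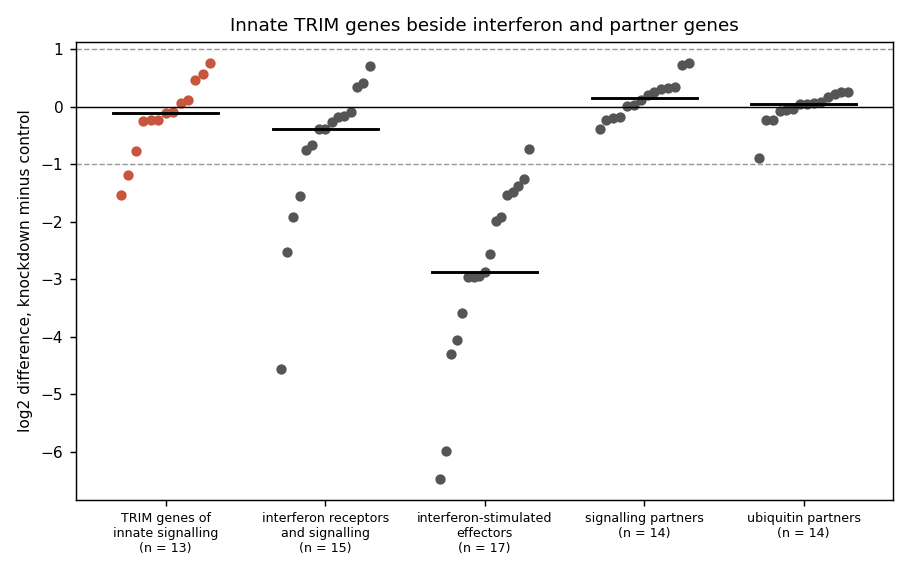
Log2 difference (vertical axis, knockdown minus control) of each measured gene in 5 lists, with black bars for list medians and dashed lines at 2-fold. The innate TRIM genes listed, which do not include Trim29, lie between -1.53 and 0.77, and the interferon-stimulated effectors between -6.47 and -0.73.

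The remaining measured genes belong to the mixed class or are PRY-SPRY genes without a large difference. Trim16, which acts with galectin-3 in clearing damaged lysosomes by autophagy, was 2.08-fold higher at its brighter probe, with levels of -2.00 and -0.94. Its second probe gave 0.57, the median over probes was 0.82, and with normexp the fold was 1.90, so the call rests on 1 probe and 1 correction. It carries a SPRY domain without a RING finger and was listed with the mixed class, as was Trim14. Trim44 (0.41) and Trim35 (0.66), the latter by 2 probes at 0.66 and 0.64, were above 0. Trim59, a membrane-bound member found in macrophages, was below 0 at both of its probes, at -0.45. Trim37, a ligase of peroxisomes and centrioles, had a difference of -0.17. Trim45, an inhibitor of MAP kinase signalling, had differences of -0.32 and -0.83 at the 2 probes above background, and its other probe was not above it. Trim8, a regulator of cytokine signalling, was spotted 10 times on each array. Its difference was -0.11 ± 0.0333 (SD over 10 spots), below 0 at all 10 spots, which covers spotting and scanning on the array and not cultures.

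Probes of 1 gene mostly gave like values. In 11 members more than 1 probe was above background on each array, and 10 of them had like directions at these probes, the exception being Trim39 at -0.06 and 0.0028. In 8 of the 11 the probes lay within 0.1 of each other. The widest gap was 0.69, at Trim65. Of the genes at 2-fold or more only Trim16 was among the 11, with probes at 1.06 and 0.57. Trim2, Trim9, Trim34a and Trim63 had no second probe above background on both arrays, so this comparison does not cover their calls.

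Several members lie close together. Trim47 and Trim65 neighbour each other on chromosome 11 (probes from 115967143 to 115986104, mm9) and differed in sign, at -2.18 and 0.77. Of the 30 other genes measured within 500 kb, Itgb4 was higher at 1.56 and Sphk1 lower at -1.83, and the median was 0.0013. Trim11 and Trim17 lie within 20.1 kb on the same chromosome, and Trim11 had a difference of 0.02. Jmjd4 near them was higher, at 1.02. Trim7 (0.14) and Trim41 (0.17) lie within 43.8 kb of each other, with the interferon-induced GTPase gene Tgtp2 nearby at least 4.15-fold lower and above background on the control array only. In the MHC region of chromosome 17, Trim26 was the 1 gene measured of 5 within 50.9 kb, and Rnf39 nearby was higher, at 2.50 and above background on the knockdown array only. Trim21 and Trim68 lie within 120 kb on chromosome 7, with differences of -0.77 and -0.06, and no other gene measured around them differed by 2-fold. Around the Trim30 cluster, which runs over 181 kb by its probes, 6 of 51 genes that are not Trim genes were measured within 500 kb. Of these Olfr639 (-2.98) and Olfr666 (-3.60) were lower and Olfr649 (2.82) was higher, all on 1 array above background only. Counted by bounds Olfr639 and Olfr649 were within 2-fold. Their bright levels were -4.98 and -5.39, against -5.96 and -5.97 for the lowest level well above background on the other array. Around the unmeasured Trim60, Trim61 and Trim75 on chromosome 8, Cpe was higher, at 9.05.

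The 21 genes not measured were Trim5, Trim6, Trim10, Trim12a, Trim15, Trim31, Trim38, Trim40, Trim42, Trim43b, Trim50, Trim52, Trim54, Trim55, Trim58, Trim60, Trim61, Trim67, Trim71, Trim72 and Trim75. Of these 14 belong to the PRY-SPRY class and 4 to the COS box class. Trim43c, known from early embryos, was measured at 1 of its 2 probes with a difference of -0.21.

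**Figure D4:**
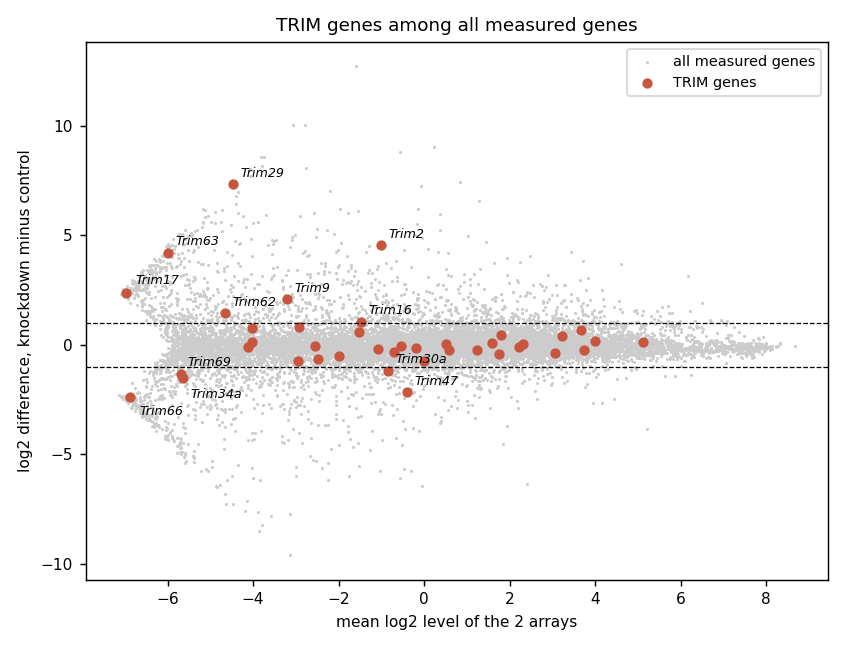
Log2 difference (vertical axis, knockdown minus control) against the mean log2 level of the 2 arrays for all 13773 measured genes (grey) and the 40 TRIM genes (red), with dashed lines at 2-fold. Trim17 and Trim66 lie at the left edge, where signals on 1 array are not well above background, and Trim2 and Trim47 lie among brighter genes.

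Several calls of dim genes were lost under normexp. Its offset of 50 shrinks the folds of signals near or below that size, so losses among such genes are no independent check. With normexp 4 genes were past 2-fold on the higher side and 2 on the lower, against 5.70% and 4.43% of all measured genes with the same correction. These were Trim2, Trim9, Trim29 and Trim63, and Trim30a and Trim47. Trim16, Trim17, Trim34a, Trim62, Trim66 and Trim69 were then within 2-fold, with folds from 1.21 to 1.90. Of these 6 genes 4 were above background on 1 array only.

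**Figure D5:**
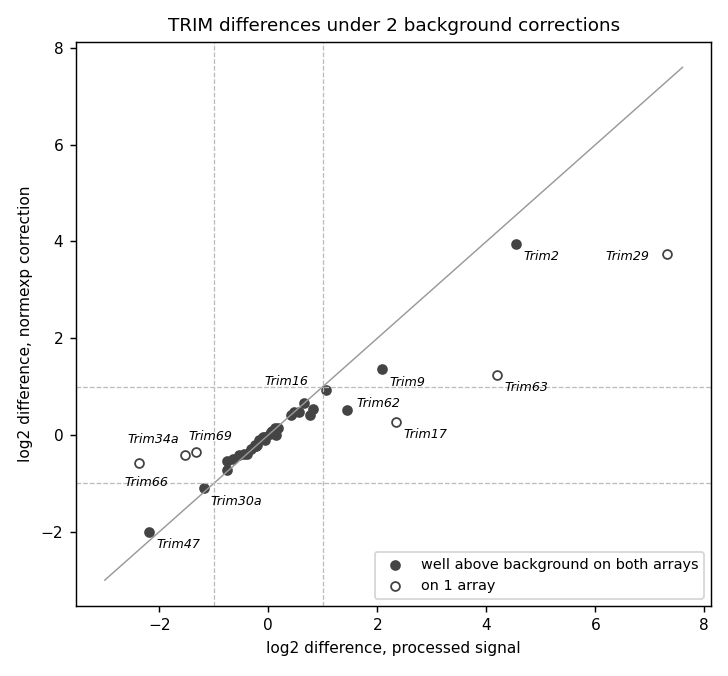
Log2 difference of the 40 measured TRIM genes from the processed signal (horizontal axis) and after normexp correction (vertical axis), with a grey line of equality, dashed lines at 2-fold and open circles for genes above background on 1 array only. Trim2, Trim47 and Trim30a stay past 2-fold on both axes, while Trim17, Trim66, Trim34a and Trim69 do so on the horizontal axis only.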

How the data were processed

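Each sample was hybridised to 1 one-colour Agilent array with 60-base probes. In the deposited scanner output each spot has a linear intensity; the submitters' processing notes name Agilent Feature Extraction 10.7.3.1 as the software. Local background was not subtracted, trends within the array were removed, surrogates replaced signals not above background, and positions refer to mm9, per the file headers. The headers place both arrays on 1 slide. The authors' value table holds the same intensity, rounded (scanner to table from 0.995 to 1.005, column medians 28 and 27.8); it is linear and uncentred.

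Of 43020 spots per array, 53.3% (control) and 52.9% (knockdown) were well above background and 0 were saturated. Outlier spots were left out. The log2 intensity was taken minus the 75th percentile of the array, repeated spots were averaged, and a probe needed over 50% of its spots flagged well above background. Probes were named through RefSeq genes of GRCm38.p6 (30180 of 39429). Of the 88 member probes 82 matched by accession and 6 by symbol. A bound ("at least N-fold") divides the bright signal by the dim array's lowest signal that is well above background, or by the probe's own dim signal if that is higher. For 216 repeated probes differences from single spots had a median SD of 0.0784 (log2).

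Genes are named where they differed by 2-fold or more, or were among the 4 members of a TRIM list with the largest differences, or among the 3 of another list, or were other genes at 2-fold or more within 500 kb of a TRIM cluster; further members were named by role after their values were seen. The members and lists were chosen with earlier results of these data known. The calculation was tested on simulated data for large shifts and for no shift, and shifts near the 2-fold threshold were not checked. Tools were R 4.3.3 with limma 3.58.1 and Python 3.11.15. Alternatives were normexp with an offset of 50, other scalings, other filters and probe rules, a 1.5-fold threshold and the deposited table.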

Additional observations from a re-analysis of the deposited data

How the results depend on the processing

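The counts of 7 TRIM genes higher and 5 lower were the same after median scaling, quantile or cyclic loess normalization, scaling over probes above background and from the deposited table. Normexp gave 4 higher and 2 lower. Restriction to genes above background on both arrays gave the same counts by leaving out genes. Its higher genes included Trim16 and Trim62 in place of Trim29 and Trim63. Counting by bounds gave 6 higher and 3 lower, the 1.5-fold threshold 10 and 8, no filter 8 and 7, and the median over probes 6 and 5. With the genes named otherwise in the files added, an alternative chosen after seeing the data, the counts were 7 and 6. The median difference ran from -0.10 to 0.033, the latter after median scaling, which moved the median of all genes from -0.05 to 0.04. No called gene changed sign under these alternatives. Signal over background limits the genes above it on 1 array. No paired analysis was possible because each group has 1 array.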
